A study of Mus musculus with 3 samples.

Results

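Neurotransmitter receptors were followed as a group of 90 probe sets among the 12488 probe sets of the array. Each probe set is a group of short oligonucleotides that together read 1 transcript or, for some types, several related ones. A probe set was included when its annotation gave a single gene symbol belonging to a glutamate, GABA, glycine, acetylcholine, serotonin, dopamine, adrenergic, purine, opioid, somatostatin, neuropeptide Y or tachykinin receptor family. The 90 probe sets stood for 74 genes of the 8251 on the array that had a single symbol. By class there were 19 probe sets for glutamate receptors, 12 for GABA, 2 for glycine, 13 for acetylcholine, 18 for amines, 6 for purines and 20 for neuropeptides. All 90 annotated symbols were those of receptor genes. The beta-adrenergic and adenosine receptors and all metabotropic glutamate receptors but Grm8 were not analysed here.

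The arrays, of the Affymetrix type MG-U74Av2, measured total RNA of mouse retina at postnatal day 7 (P7). There were 3 RNA samples, called pools 1, 2 and 3 here with numbers that are names only, and each combined the neural retinas of 3 to 4 animals. The animals were wild type, on a mixed 129/SvEv and C57BL/6 background, were littermates of Rp1-/- mice, and gave their retinas between 1 and 2 pm. All 3 pools formed 1 group with no treatment, so the data allow each receptor to be set against background and its spread between pools to be measured, but no condition to be compared with another.

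Receptors are the receiving side of synapses. Ion channel receptors (AMPA, kainate, NMDA, GABA-A, glycine, nicotinic and P2X types) are assembled from several subunits and open within milliseconds, while G-protein-coupled receptors act more slowly through second messengers. In the retina, glutamate carries the signal from photoreceptors to bipolar cells and on to ganglion cells, GABA and glycine are the inhibitory transmitters of horizontal and amacrine cells, and in the first postnatal days acetylcholine released by starburst amacrine cells drives waves of activity across the ganglion cell layer.

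Few receptor probe sets had signal that stood clear of background. The background bar was set in each pool at the 90th percentile of 48 genes typical of other organs (liver, pancreas, testis, skin and more), and lay at 369, 374 and 369 intensity units in pools 1, 2 and 3. Of the 90 receptor probe sets 6 passed it in all 3 pools (6.67%), against 34.9% of all 10833 probe sets with a single symbol. Another 10 receptor probe sets passed it in 1 or 2 pools and 74 in none. Of the off-tissue genes themselves, Lhb and Tff1 passed in all 3 pools. The count rested on the height of the bar: at the 75th percentile of the same genes (169, 186 and 177 in pools 1, 2 and 3) 25 receptor probe sets passed in all pools (27.8%), from 21 genes, against 50.9% of all probe sets. At the 95th percentile (498, 595 and 671) 3 passed in all pools, 1 each of Gria2, Grik5 and Gabbr1, against 23.1% of all probe sets. The off-tissue genes were a list written for this work, and another list would move the bar. At the 85th percentile of the list (290, 263 and 307), an alternative added after the data were seen, 13 passed in all pools, against 40.6% of all probe sets. The 7 further ones were the second probe set of Gria1 and those of Chrna6, Htr1d, Htr5a, Htr7, P2rx1 and P2rx7. The median over the receptor probe sets of their mean intensity was 119, against 246 over all probe sets with a single symbol. Signal under the bar leaves expression at a low level possible. In RNA from whole retina, a receptor made by few cells cannot be told apart from one made at a low level by many.

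The 6 probe sets were those of the glutamate receptor genes Gria1, Gria2 and Grik5, of Gabbr1 for GABA, of Glrb for glycine and of the somatostatin receptor gene Sstr4. No acetylcholine, amine or purine receptor passed in all 3 pools. The ion channel subunits gave 4 of the 6 from 47 probe sets, and the G-protein-coupled receptors 2 from 43.

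**Figure D1:**
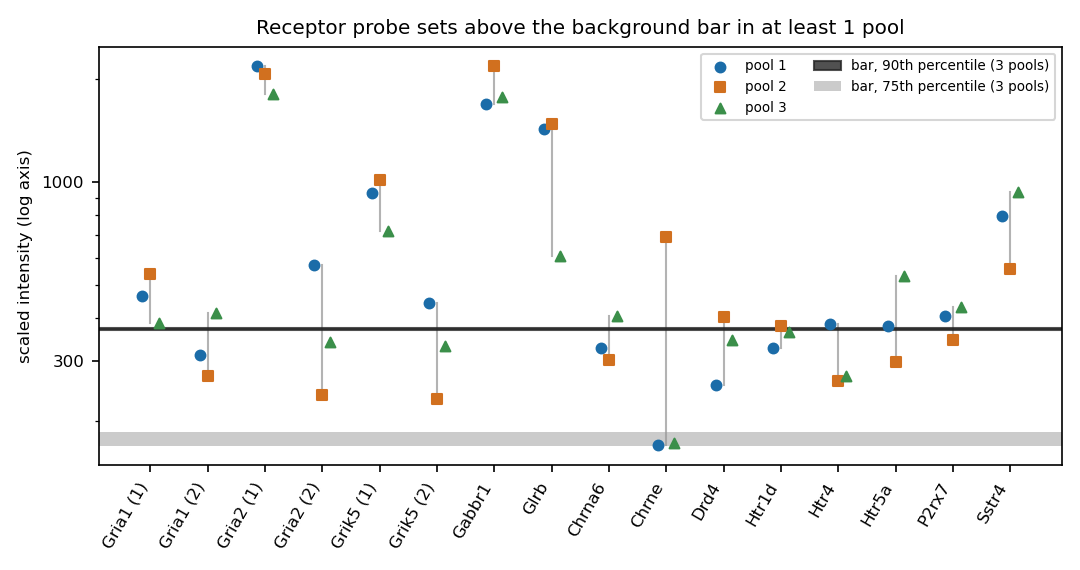
Scaled intensity (log axis) of the 16 receptor probe sets above the 90th percentile bar in at least 1 pool, 1 point per pool, with a line from the lowest to the highest pool and horizontal bands for the 2 bars. Numbers in brackets tell probe sets of 1 gene apart. Gria1, Gria2, Grik5, Gabbr1, Glrb and Sstr4 each have a probe set with all 3 points above the upper bar, while Chrne has 1 point above it, in pool 2.

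Glutamate receptors passed in all pools for 3 of 19 probe sets, and for 9 of 19 at the lower bar. Among AMPA receptors, the channels of fast excitation, Gria2 stood far above the bar by 1 of its 4 probe sets. Gria2 encodes GluA2, the subunit that makes AMPA channels poorly permeable to calcium. Its brightest probe set, of a type that can be shared between related transcripts, was at 2181, 2073 and 1810 in pools 1, 2 and 3 (2021 ± 191). Here and below, such pairs give the mean and SD over n = 3 pools. The pools were close together there, with the highest 1.21-fold above the lowest.

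The other Gria2 probe sets did not give the same picture. One was at 571, 239 and 340, above the bar in pool 1 alone, and another at 283, 223 and 206, above the lower bar in every pool. The fourth, made under relaxed selection rules, was at 0.673, 55.3 and 10.7 and so carried no signal above background in any pool. Gria1, which encodes the subunit GluA1, passed in all pools by 1 of its 2 probe sets, at 463, 538 and 387 (463 ± 75.8). This was the passing probe set nearest the bar, its lowest ratio to the bar being 1.05, and it did not pass the 95th percentile bar in all pools. The other Gria1 probe set was at 313, 271 and 415 and passed in pool 3 alone. Gria3 and Gria4, the remaining AMPA subunit genes, passed in no pool and ranged from 89.8 to 187 and from 101 to 167.

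Of the kainate receptors, which modulate transmission at many synapses and carry it at some cone bipolar cell contacts, Grik5 passed. Grik5 encodes GluK5, a subunit that forms channels only together with other kainate subunits. Its first probe set was at 933, 1015 and 720 (889 ± 152), above the bar in every pool. The second, made under relaxed selection rules, was at 442, 233 and 333 and passed in pool 1 alone. The partner subunit gene Grik2 passed the bar in no pool, and by 1 of its 2 probe sets it passed the lower bar in all pools, with values from 235 to 344. Grik1, known from OFF cone bipolar cells, ranged from 84.5 to 154, below both bars.

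NMDA receptors, the calcium-permeable glutamate channels that need glycine or D-serine as a co-agonist, were represented by 4 genes for GluN2 subunits, and none passed in any pool. Grin2c came nearest, with a range of 236 to 372, and its highest value lay just below the bar of 374 in pool 2. Grin2a, Grin2b and Grin2d ranged from 40.7 to 130, below both bars. Grin1, the gene for the subunit GluN1, was not analysed here, so no statement is made for NMDA receptors as a whole. The delta receptor gene Grid1 ranged from 77.4 to 352 and passed the lower bar in 2 of 3 pools. Grm8, a presynaptic inhibitory receptor of the metabotropic family, ranged from 183 to 341 and also passed the lower bar in 2 pools.

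**Figure D2:**
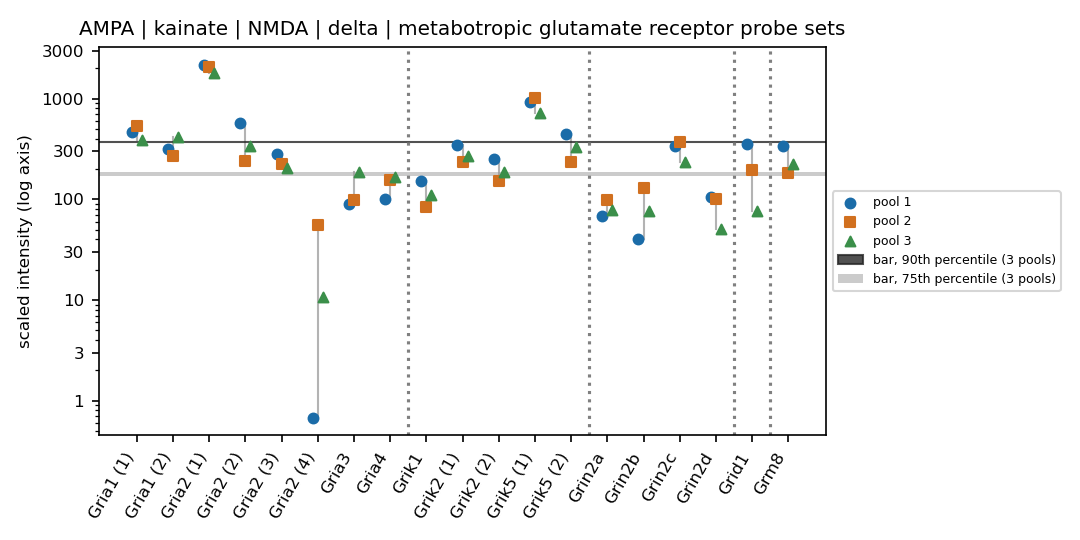
Scaled intensity (log axis) of the 19 glutamate receptor probe sets in the 3 pools, grouped from left to right as AMPA, kainate, NMDA, delta and metabotropic, with the 2 background bars as horizontal bands. 3 probe sets, 1 each of Gria1, Gria2 and Grik5, lie above the upper bar in every pool, and different probe sets of Gria2 spread from 0.673 to 2181 units.

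GABA receptors passed in all pools for 1 of 12 probe sets, and for 2 at the lower bar. The one was Gabbr1, which encodes the subunit of the metabotropic GABA-B receptor that binds GABA. It was at 1693, 2185 and 1770 in pools 1, 2 and 3 (1883 ± 264), at least 4.58 times the bar in every pool. None of the 9 probe sets for GABA-A subunits, which form the chloride channels of fast inhibition, passed in any pool or passed the lower bar in all pools. They covered alpha (Gabra2, Gabra3, Gabra6), beta (Gabrb1, Gabrb2), gamma (Gabrg1, Gabrg3) and delta (Gabrd) subunits and ranged from 10.7 to 244. Gabra2, Gabrb1 and Gabrb2 passed the lower bar in 1 or 2 pools.

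The rho subunits form the slow GABA receptor of bipolar cell terminals, for which the retina is known. Gabrr1 was at 240, 290 and 196 (242 ± 47.1), above the lower bar in all 3 pools and the GABA receptor nearest below the upper one. Gabrr2 ranged from 50.1 to 93.0, below both bars. The remaining alpha, beta and gamma subunit genes and Gabbr2, the obligate partner of Gabbr1, were not analysed here, so no statement is made for GABA-A receptors as a whole.

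Both glycine receptor probe sets passed the lower bar in all pools, and 1 of the 2 passed the upper one. Glycine receptor genes other than Glrb and Glra1 were not analysed here. Glrb, the beta subunit that ties the receptor to the scaffold protein gephyrin, was at 1426, 1484 and 609 (1173 ± 489). Pool 3 was the low one, 2.43-fold below pool 2. Its value of 609 was above the 90th percentile bar but below the 95th percentile bar of 671. Glra1, an alpha subunit, which binds glycine, was at 329, 238 and 348 (305 ± 58.4). Its pool 3 value was the highest of the 3, so the 2 subunits did not share the low pool.

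**Figure D3:**
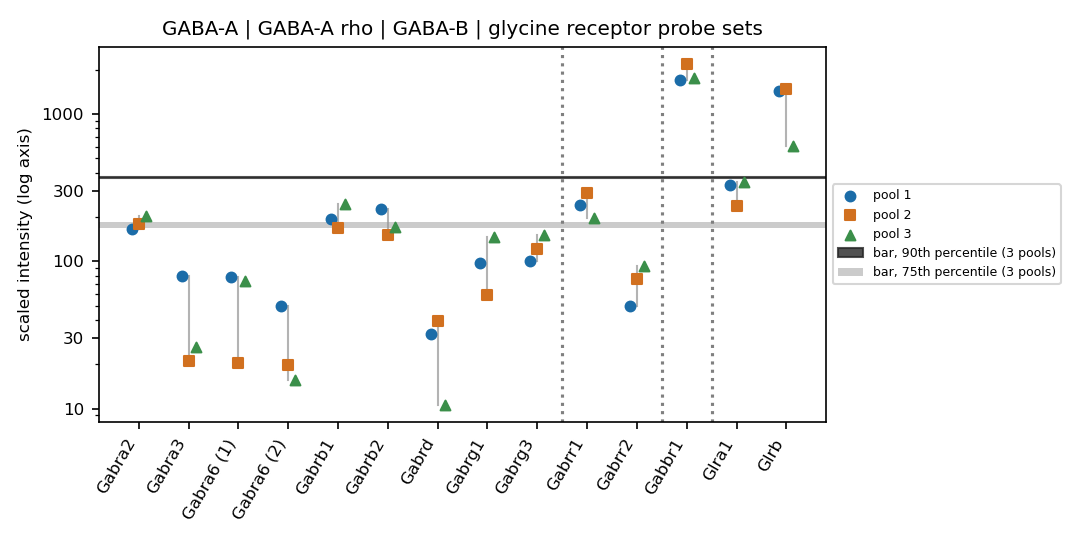
Scaled intensity (log axis) of the 14 probe sets for GABA-A, GABA-A rho, GABA-B and glycine receptors, from left to right, in the 3 pools, with the 2 background bars. Gabbr1 and Glrb lie above the upper bar in every pool, Gabrr1 and Glra1 lie between the bars, and the 9 GABA-A probe sets reach no higher than 244.

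Acetylcholine receptors passed in all pools for none of 13 probe sets, and for 2 at the lower bar. Both were neuronal nicotinic subunits. Chrna6, known from retinal ganglion cells, was at 328, 302 and 406 in pools 1, 2 and 3 (346 ± 54.3) and passed the upper bar in pool 3, as the cholinergic receptor nearest to it. Chrna7, which forms channels of 1 subunit type, was at 329, 188 and 301 (273 ± 74.7), above the lower bar in every pool. Chrnb2, the subunit that early retinal waves are known to need, ranged from 32.4 to 69.6, below both bars. The muscarinic receptor genes Chrm1 and Chrm4, of the G-protein-coupled type, ranged from 20.2 to 106. The remaining neuronal nicotinic and muscarinic receptor genes were not analysed here.

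The 5 genes for nicotinic subunits of skeletal muscle (Chrna1, Chrnb1, Chrnd, Chrne and Chrng), read by 8 probe sets, passed in no pool apart from 1 probe set of Chrne. Among the 27 receptor probe sets bright enough to be tested, it was the single one called for varying more between the pools than its brightness predicts. It was at 171, 691 and 173, so that pool 2 stood 4.05-fold above pool 1 (limma adjusted p = 0.0139 for the spread over the 3 pools, over 6211 probe sets tested). The call was lost without scaling between arrays, after quantile normalisation, with a prior that was not robust and with dim probe sets kept in the test. Calls over all probe sets fell too, from 83 to 6 without scaling, 6 after quantile normalisation, 38 with that prior and 0 with dim probe sets kept. Without pool 2 the Chrne probe set was too dim to be tested. It is of the type made under relaxed selection rules, and the other Chrne probe sets did not follow it. One was at 195, 35.4 and 216, with pool 2 as the low one, and the other at 25.2, 18.5 and 17.5.

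Markers of skeletal muscle were looked at beside this value, since eye muscle can be carried over in dissection. Of the 8 markers Actc1 alone passed the bar in all pools, and Myh3 lay under the floor of 42.2 in every pool. None was at 0. Their summed intensity was 1392, 2147 and 1402 in pools 1, 2 and 3, with pool 2 highest, as it was for Actc1 (539, 1051 and 713) and for the regulator gene Myog (181, 414 and 105). Pool 2 was also the highest for 2187 of the 3776 single-symbol probe sets above the bar, and for 4457 of all 10833. Summed markers of rod, bipolar, amacrine and horizontal, Müller glia and vessel cells were highest in pool 2 too. Those of ganglion cells, lens, pigment epithelium and microglia were not. The Actc1 probe set was of a type that can be shared between related transcripts, and it gave 1051 of the 2147 in pool 2. Ckm, the muscle creatine kinase gene, was at 237, 161 and 237. The part of muscle RNA in the Chrne value was not tested.

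**Figure D4:**
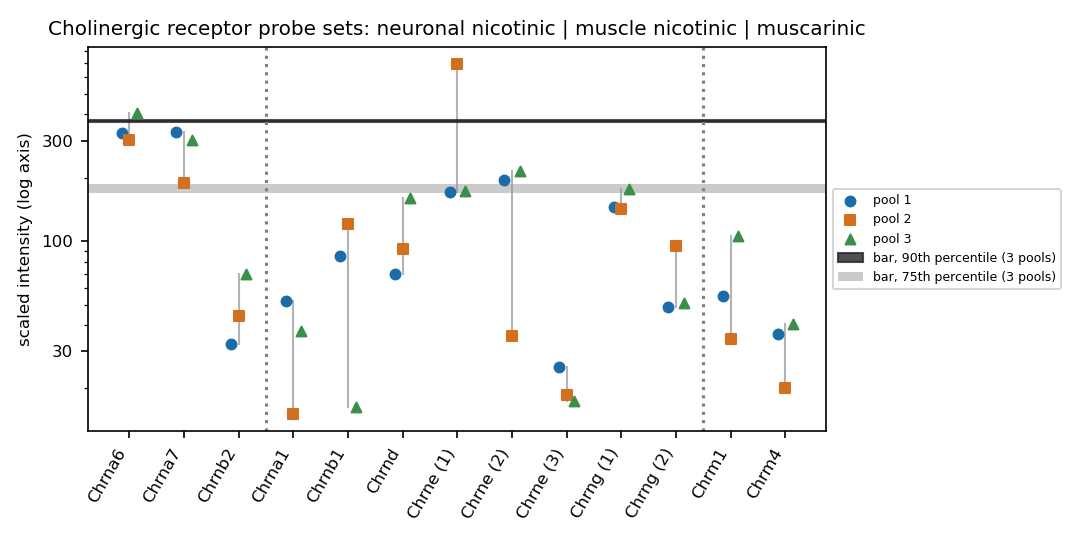
Scaled intensity (log axis) of the 13 acetylcholine receptor probe sets in the 3 pools, with neuronal nicotinic subunits on the left, muscle nicotinic subunits in the middle and muscarinic receptors on the right, and the 2 background bars. Chrna6 and Chrna7 lie above the lower bar in every pool, and 1 of 3 Chrne probe sets is high in pool 2 alone, at 691.

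Amine receptors passed in all pools for none of 18 probe sets, and for 6 at the lower bar. These were the dopamine receptor genes Drd2, a receptor of the dopaminergic amacrine cell itself, and Drd4, known from photoreceptors, and the serotonin receptor genes Htr1d, Htr4, Htr5a and Htr7. Drd4 ranged from 255 to 404 and passed the upper bar in pool 2 alone, while Drd2 ranged from 191 to 258 and never passed it. Htr5a passed the upper bar in 2 pools, with a range of 298 to 531, and Htr1d in 1, with a narrow range of 328 to 381. For Htr4 1 of 3 probe sets passed the lower bar in all pools and the upper one in pool 1, while another ranged from 6.93 to 15.4. The dopamine receptor gene Drd3 ranged from 23.1 to 65.9, and the serotonin receptor genes Htr1a, Htr1b, Htr1f, Htr2b, Htr2c, Htr3a and Htr5b together from 4.51 to 268, all below the upper bar in every pool. The alpha-adrenergic receptor genes Adra1b and Adra2c ranged from 31.1 to 285 and passed in no pool.

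Purine receptors passed in all pools for none of 6 probe sets, and for 2 at the lower bar. P2rx7, an ATP-gated channel known from microglia, ranged from 346 to 433 and passed the upper bar in pools 1 and 3. It was the receptor nearest below the bar, at 0.924 of it in pool 2. P2rx1, another ATP-gated channel, had a range of 319 to 357, between the bars in every pool. P2rx4 and P2rx6, of the same channel family, ranged from 57.4 to 145, below both bars. The P2Y receptor genes P2ry1 and P2ry2 ranged from 8.06 to 51.2.

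Neuropeptide receptors passed in all pools for 1 of 20 probe sets, and for 2 at the lower bar. Sstr4, a receptor for somatostatin, a peptide of amacrine cells, was at 795, 557 and 933 in pools 1, 2 and 3 (762 ± 191). All 3 values were above the 90th percentile bar, with pool 2, the low one, below the 95th percentile bar of 595. The other somatostatin receptor genes, Sstr1, Sstr2, Sstr3 and Sstr5, passed in no pool and ranged from 12.6 to 285. For Npy2r, a presynaptic receptor for neuropeptide Y, 1 probe set ranged from 212 to 265 and passed the lower bar in all pools, while another ranged from 12.7 to 47.2. The other neuropeptide Y receptor genes, Npy1r, Npy4r, Npy5r and Npy6r, ranged from 7.63 to 97.7. The opioid receptor genes Oprd1, Oprk1, Oprl1 and Oprm1 and the tachykinin receptor genes Tacr1 and Tacr2 passed in no pool.

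**Figure D5:**
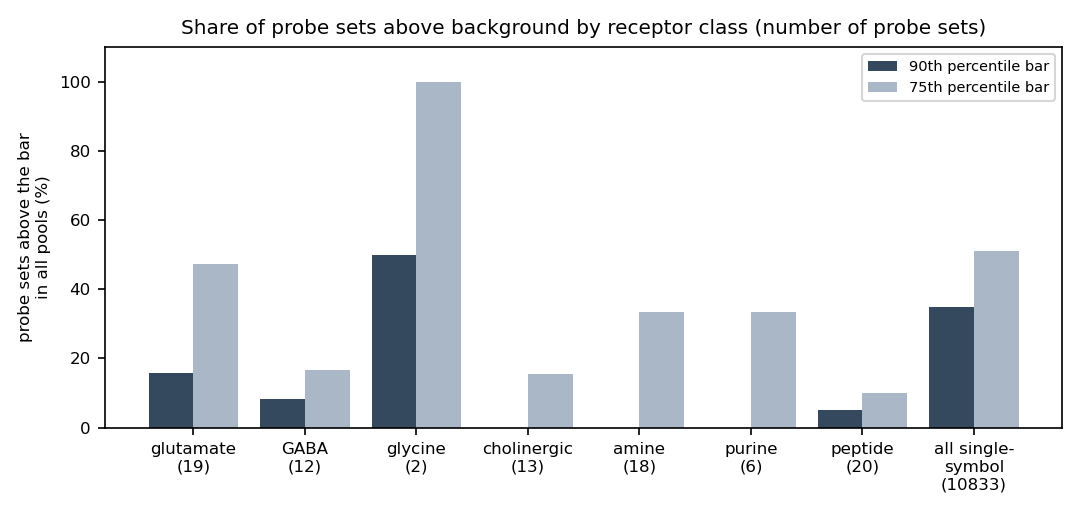
Percentage of probe sets above the background bar in all 3 pools, for the 7 receptor classes and, at the right, for all 10833 probe sets with a single symbol. Dark columns use the 90th percentile bar and light ones the 75th, and the number under each class is its probe sets. All classes but glycine, which has 2 probe sets, lie below the right-hand columns of 34.9% and 50.9%.

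The classes thus had shares of 15.8% for glutamate, 8.33% for GABA, 5.0% for neuropeptides and 0 for acetylcholine, amines and purines, beside the 34.9% of all probe sets. Glycine had 50.0%, from 2 probe sets. At the lower bar the shares were 47.4% for glutamate, 16.7% for GABA, 15.4% for acetylcholine, 33.3% for amines, 33.3% for purines and 10% for neuropeptides, beside 50.9%. These shares describe the probe sets present on the array, and since probe sets differ in how strongly they bind, no receptor's level was set against another's.

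Receptors read by more than 1 probe set show how far a call depended on the probe set. There were 11 such genes, and in none did all probe sets pass the upper bar in all pools. For Gria1, Gria2 and Grik5 the probe sets fell on both sides, and for the other 8 genes none passed. With 1 probe set per gene, 5 of 74 receptor genes passed (6.76%), against 39.6% of all genes, and Gria2 was the gene lost.

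Spread between the pools was tested for the 27 receptor probe sets that were bright enough, and few stood out. Among these 27 Chrne was the single one with a limma adjusted p below 0.05, against 1.34% of all 6211 tested. At an unadjusted p below 0.05 there were 3, against 6.76% of all tested, the others being Glrb (limma adjusted p = 0.101) and the Gria2 probe set that passed in pool 1 alone (limma adjusted p = 0.646). For the 6 probe sets above the bar the median log2 deviation from the mean over the pools was 0.09, 0.21 and -0.20 in pools 1, 2 and 3, against -0.05, 0.13 and -0.08 for all 3776 probe sets above it. The order of the pools depended on the scaling: without it the receptor deviations were 0.15, 0.09 and -0.14, and after quantile normalisation 0.12, 0.07 and -0.14. For all probe sets above the bar they were 0.01, 0.01 and -0.02 without scaling, and 0, 0.01 and -0.01 after quantile normalisation. Pool 3 was the lowest for 4 of the 6, and for 45.8% of the 3776. A range of more than 2-fold was seen for 1 of the 6, Glrb, and for 3.68% of the 3776. The 84 receptor probe sets that did not pass in all pools were lowest in pool 2 for 38 (45.2%), against 31.8% of all such probe sets.

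Genes that supply transmitters were set beside the receptors, with 1 probe set per gene. Of 31 measured genes 10 passed the bar in all pools, against 39.6% of all genes. For GABA, Gad1, which makes the transmitter, was at 2129 ± 200, and Slc32a1, which loads it and glycine into vesicles, at 1613 ± 421. For glycine, the transporter gene Slc6a9 was at 2250 ± 218 and Gldc, of the glycine cleavage system, at 1718 ± 627. For glutamate, the neuronal transporter gene Slc1a1 was at 479 ± 37.4, and Glul, which encodes glutamine synthetase, at 412 ± 26.0. The acetylcholine-degrading enzyme gene Ache was at 466 ± 39.7, while Slc18a3, the vesicular acetylcholine transporter gene, ranged from 9.24 to 48.2. None of 7 genes for dopamine and other amines passed in all pools, Th and Ddc among them. Of 9 neuropeptide genes Npy passed, at 1800 ± 541, and Sst, the ligand gene for Sstr4, ranged from 68.6 to 258.

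Genes that hold receptors in place or carry them to the membrane passed for 14 of 23 measured, beside the 39.6% of all genes. All 7 genes for GABA and glycine receptor partners passed, among them Gphn, which encodes gephyrin, at 670 ± 85.9 and Gabarap, a binding partner of the GABA-A gamma subunit, at 3322 ± 270. For glutamate receptors 4 of 10 passed, including the scaffold gene Dlg1 at 1097 ± 181 and Homer3 at 467 ± 82.2. For nicotinic receptors 1 of 3 passed, the gene Agrn at 2480 ± 421, which encodes the clustering protein agrin. For G-protein-coupled receptors 2 of 3 passed, the kinase gene Grk6 at 772 ± 224 and the arrestin gene Arrb1 at 514 ± 105. For spread between the pools, 17 of the 31 supply genes and 19 of the 23 scaffold and trafficking genes were bright enough to be tested. None of those tested had a limma adjusted p below 0.05.

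Markers of retinal and neighbouring cells were set against the same bar. Of all genes 39.6% passed it, so lists with a share near this do not stand out. Rod markers passed for 5 of 7 genes measured, with Sag at 13718 ± 1455 and Pde6b at 6026 ± 980. Bipolar markers passed for 2 of 5 (Isl1 and Neurod4), amacrine and horizontal cell markers for 5 of 8 (among them Gad1 and Pax6), ganglion cell markers for 6 of 7 (among them Nefl and Thy1) and Müller glia markers for 4 of 6 (among them Rlbp1 and Glul). Pigment epithelium markers passed for none of 6, vessel and blood markers for 2 of 6 (Kdr and Hba-a1), and microglia markers for 1 of 7 (C1qc). Lens markers passed for 6 of 9 (among them Cryaa and Crygs), and their summed intensity was far lower in pool 1 (26799, 126923 and 136385). All 8 lens markers tested were called for excess spread, as was 1 rod marker, the transducin gene Gnat1, at 219, 699 and 680 (limma adjusted p = 0.0162), which was also low in pool 1. Without scaling or after quantile normalisation 6 of all 6211 probe sets were called, and with dim probe sets kept 0 of 12422. These 9 marker calls were therefore not all kept in those settings. Which of them were kept without scaling or after quantile normalisation was not looked at. Among the 6 receptor probe sets above the bar the median pool 1 deviation was 0.09, against -0.05 over all 3776 probe sets above it. The lowest pool 1 deviations were -0.14, for Gabbr1, and -1.87. Since 1 is the lowest of 6 values and the other of 3776, these lowest values cannot be compared. Passing in pool 1 was a condition for both groups. Among the other 84 receptor probe sets the median pool 1 deviation was 0, as it was over all 7057 single-symbol probe sets not above the bar in all pools. The lowest pool 1 deviations were -1.32, for Adra2c, and -2.15. These groups also differ in size, so their lowest values cannot be compared either. Adra2c was at 38.3, 98.2 and 285 and below the bar in every pool. Its pool 1 value was under the floor, so its deviation depended on the floor. The part of lens RNA in the receptor values was not tested.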

How the data were processed

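The deposited table held 1 intensity per probe set and array on a linear scale. How the authors made the intensities they deposited (software, background correction) is not given in the sources used here. From the values, each array had been scaled, its mean after trimming 2% at either end being 500.2, 500.3 and 500.2. The array type came from the sample titles. Symbols were taken from the supplied platform annotation. All 90 receptor probe sets were found by gene ID in a RefSeq table of assembly GRCm38.p6, used for names and gene order.

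The 66 control probe sets were left out, and arrays were brought to a common median (factors 0.962, 1.09 and 0.959). Intensities are printed on this scale. For the spread test and the log2 deviations, values were also floored at the 20th percentile (42.2) and put on the log2 scale. For the lists and the bar, 1 probe set was taken per gene: one without a letter suffix first, then the one with the highest mean.

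Excess spread was tested on the 6211 probe sets with the highest mean log2 values. Each variance over the pools, with 2 residual degrees of freedom, was divided by the prior variance from squeezeVar of limma 3.58.1 (robust, with mean level as the covariate, R 4.3.3). Upper-tail p-values were adjusted by Benjamini-Hochberg over all 6211, with a threshold of 0.05. The script was tested on simulated data. The number of arrays limits the precision. Nothing says whether the pools came from separate litters, so p-values measure only how these samples vary, which may be technical.

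Members, lists, bars and tests were chosen with earlier results of these data known. Values per pool were given for receptors above the bar in all pools, with excess spread, with probe sets on both sides of the bar, or nearest to it in the glutamate, GABA, glycine and cholinergic classes. Chrna7, Adra2c and 2 further Chrne probe sets were added after their values were seen. Other receptors are given by range. From each list the first 2 members above the bar were named. The others named from the lists (Slc18a3, Th, Ddc, Sst, Myh3, Myog, Ckm and Gnat1) were chosen after their values were seen. Alternatives were other scalings, bars, filters, floors and probe set choices, and leaving out each pool.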

Additional observations from a re-analysis of the deposited data

How the results depend on the processing

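The number of receptor probe sets above background was 6 without scaling and 6 after quantile normalisation. In both, 34.9% of all probe sets with a single symbol passed. It was 5 with 1 probe set per gene (6.76%, against 39.6% of all genes) and 5 without probe sets that carry a letter suffix (6.49%, against 37.5%). With the bar at the 75th percentile it was 25, and at the 95th 3, where those of Gria1, Glrb and Sstr4 were lost. At the 85th, a bar added after the data were seen, it was 13. The shares of all probe sets at these bars were 50.9%, 23.1% and 40.6%. Leaving out each pool gave 6 to 8, beside 36.1% to 37% of all probe sets. Without pool 2 the count was 8 (8.89%, against 36.1%), and all of the first 6 were among them. The call of Chrne for excess spread rested on pool 2: leaving out each pool gave 0 to 1 called receptors, and 0 without pool 2, where the Chrne probe set was too dim to be tested. With limma, no receptor was called without scaling (0, with 3 at an unadjusted p below 0.05). The same held for quantile normalisation (0, with 2 unadjusted), for a test that kept dim probe sets (0, with 15), for the brightest 25% (0, with 1) and for a prior that was not robust (0, with 2). Calls over all probe sets fell as well, from 83 of 6211 to 6 without scaling, 6 after quantile normalisation and 38 with that prior. They were 28 of 3105 in the brightest 25%, 0 of 12422 with dim probe sets kept, and 9 to 30 with a pool left out. In the brightest 25% Chrne was not among the 5 receptors tested. The degrees of freedom of the prior were 279 in the main test, 8.56 without scaling and 8.66 after quantile normalisation. They were 19.2 with the prior that was not robust and 0.851 with dim probe sets kept. For these settings the cause of the lost call was not tested. There was 1 receptor called with the 10th percentile floor and 1 with a pseudocount of 32. The median deviations of the receptors in pools 1, 2 and 3 were 0.15, 0.09 and -0.14 without scaling and 0.12, 0.07 and -0.14 after quantile normalisation, so that pool 1 was highest in both. For all probe sets above the bar they were 0.01, 0.01 and -0.02, and 0, 0.01 and -0.01. Over all 90 receptor probe sets in place of the 6 the medians were 0, -0.04 and 0, against 0, 0.03 and -0.01 for all single-symbol probe sets. With each pool left out, the receptor deviations were -0.05 to 0.05 in pool 1, 0.05 to 0.20 in pool 2 and -0.20 to -0.05 in pool 3. A second list of off-tissue genes was planned as an alternative and not run, since no such list was at hand. How far the bar depends on the choice of genes was therefore not tested, and its percentile alone was varied. No paired analysis was possible because all samples form 1 group.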

Other observations

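Some receptor genes lie next to each other in the genome. In the order of protein-coding genes in the RefSeq table, 7 pairs of the receptor genes measured were direct neighbours: Gria2 and Glrb on chromosome 3, Gabrr2 and Gabrr1 on chromosome 4, Gabrg1 and Gabra2 on chromosome 5, P2rx7 and P2rx4 on chromosome 5, Npy5r and Npy1r on chromosome 8, Gabra6 and Gabrb2 on chromosome 11, and Chrnd and Chrng on chromosome 1. Gria2 and Glrb were the single pair with both genes above the bar in all 3 pools. In the other pairs no gene was. Gria2, by its passing probe set, and Glrb were both lowest in pool 3, at 1810 and 609, but Glrb ranged over 2.43-fold and Gria2 over 1.21-fold.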
